A study of Mus musculus with 6 samples.

Results

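The inhibin, activin and anti-Müllerian hormone (AMH) axis of the adult mouse testis was followed through 10 genes, chosen by symbol: the subunit genes Inha, Inhba and Inhbb, the hormone gene Amh, the receptor genes Amhr2, Acvr1b, Acvr2a, Acvr2b and Tgfbr3, and the antagonist gene Fst. Rows for all 10 of 10 symbols were found among the 23253 genes listed in any library. Poly(A)-selected messenger RNA of whole testis was sequenced in 6 libraries from C57BL/6 mice aged 8 months, 3 labelled L3mbtl2 conditional knockout (cKO) and 3 labelled control. L3mbtl2 encodes a Polycomb group protein that takes part in gene repression on chromatin. The labels name neither a Cre line nor the cells targeted by the deletion, and no allele for the controls. They also leave unsaid whether each library is 1 animal, so p-values reflect library-to-library spread that may in part be technical.

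Inhibins and activins are paired-subunit proteins of the transforming growth factor beta (TGF-beta) family. Inhibin B, made by Sertoli cells from the alpha subunit (Inha) and the beta-B subunit (Inhbb), enters the blood and lowers the secretion of follicle-stimulating hormone by the pituitary. Pairs of beta subunits without the alpha subunit form activins, which signal through type II receptors (Acvr2a, Acvr2b) and a type I receptor (Acvr1b) to SMAD proteins, and follistatin (Fst) binds activins and keeps them from their receptors. Betaglycan (Tgfbr3) holds inhibin on a type II receptor. AMH, the Sertoli cell hormone that makes the Müllerian ducts regress in the male fetus, signals through its own type II receptor, Amhr2, and in the mature testis its level is low.

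The sequences before the starts of the 3 most abundant members are shown, these being the genes whose transcripts stand highest per length. RefSeq promoter windows, 250 bases before to 50 after a start on GRCm38.p6, the same primary assembly as the mm10 build named by the submitters, were found for 7 of the 10 genes; Amh, Fst and Tgfbr3 had none in the table used. The bases printed are those before the start that carry no exon in GENCODE M21. For Inha this leaves the 90 bases after the first exon of an upstream-starting transcript (chr1:75507519-75507608, plus strand), and for Amhr2 (chr15:102445117-102445366, plus strand) and Inhbb (chr1:119422249-119422498, minus strand, written 5′ to 3′ on that strand) all 250 bases. The printed bases of Inha and Amhr2 lie inside the RefSeq spans of these genes, which begin at 75507077 and 102445002. Positions are counted from the start used for each window, not from the first base of the gene. Capitals mark AGGTCA, the core motif bound by the steroidogenic factor NR5A1 and other nuclear receptors, and TGATAA on either strand, a GATA factor motif.
Inha: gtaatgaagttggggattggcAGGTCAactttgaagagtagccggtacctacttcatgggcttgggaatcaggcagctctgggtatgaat
Amhr2: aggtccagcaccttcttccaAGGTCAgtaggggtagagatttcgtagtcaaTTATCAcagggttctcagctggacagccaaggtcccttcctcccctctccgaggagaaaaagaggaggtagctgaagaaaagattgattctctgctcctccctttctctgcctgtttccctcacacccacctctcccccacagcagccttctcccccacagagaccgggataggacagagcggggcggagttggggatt
Inhbb: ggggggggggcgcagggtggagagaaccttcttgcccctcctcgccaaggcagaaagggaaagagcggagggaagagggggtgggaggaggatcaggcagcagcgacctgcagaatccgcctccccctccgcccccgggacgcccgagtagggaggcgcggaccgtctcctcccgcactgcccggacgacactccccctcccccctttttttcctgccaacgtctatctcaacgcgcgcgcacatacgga

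AGGTCA begins at position -69 from the start of Inha and at -230 from that of Amhr2, on the gene's strand in both, and 16.3% of all 32851 RefSeq promoter windows hold it on either strand. The reverse complement of TGATAA begins at -199 from the start of Amhr2, and 9.05% of windows hold that motif. The cAMP response element TGACGTCA (in 1.79% of windows), the GATA motif AGATAA (11.2%) and the SOX motif AACAAT (10.7%) were also searched on both strands, and none of the matches overlap. No searched motif was found in the windows of Inhbb, Inhba, Acvr1b, Acvr2a or Acvr2b, and a match or its absence says only which letters stand in these 300 bases. Of the factors that bind such motifs, the transcript levels of Nr5a1, Gata1, Gata4 and Sox9 are given with the regulators further on.

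The targeted gene was checked first and went against the labels. Under the label cKO, L3mbtl2 had 1030, 1105 and 1031 expected counts, against 658, 705 and 673 under the label control (log2 fold change 0.67, SE 0.10; edgeR adjusted p = 0.166), and DESeq2 called it higher under cKO (adjusted p = 0.00031). FPKM (fragment counts scaled by the authors for transcript length and library depth) stood at 15.9, 17.1 and 16.03 under cKO and 14.0, 14.9 and 13.6 under control, and the length it is scaled by was 3493 ± 4.83 bases under cKO and 2717 ± 105.5 under control (SD, n = 3 each). On log2(FPKM + 1) the log2 fold change of L3mbtl2 was 0.19 (limma adjusted p = 0.224). The names of the deposited tables also carry the opposite genotype from the sample titles that give the labels. Each library is called by its label, and every direction given here would turn if the labels were exchanged. Library totals were 18604191 to 18822050 expected counts under cKO and 17689205 to 18083291 under control. Over genes, log2 CPM (counts relative to library size) correlated at 0.981 to 0.982 among the libraries labelled cKO, against 0.937 to 0.972 among those labelled control, and control replicate 2 reached 0.980 to 0.982 against the cKO libraries.

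Per unit of length the members spanned from the receptor of AMH, which stood highest, to the beta-A subunit, which was near 0. Over the 6 libraries Amhr2 had a median of 108 FPKM (91.6 to 266) and Inha of 46.7 (37.5 to 144), and Amhr2 exceeded Inha in all 6 libraries although their ranges overlap. Inhbb followed with a median of 8.15 FPKM, above every member below it in all 6 libraries. Acvr1b, Tgfbr3 and Acvr2a came next at medians of 6.14, 3.75 and 5.16 FPKM. The ranges of these 3 overlap: Acvr1b was above Acvr2a in all 6 libraries and above Tgfbr3 in 4 of 6, and Tgfbr3 above Acvr2a in 2 of 6. Amh, at a median of 1.41 FPKM, stood above Acvr2b (0.970) in all 6 libraries, Acvr2b above Fst (0.250) in 5 of 6, and Inhba lay last at 0.0550.

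**Figure D1:**
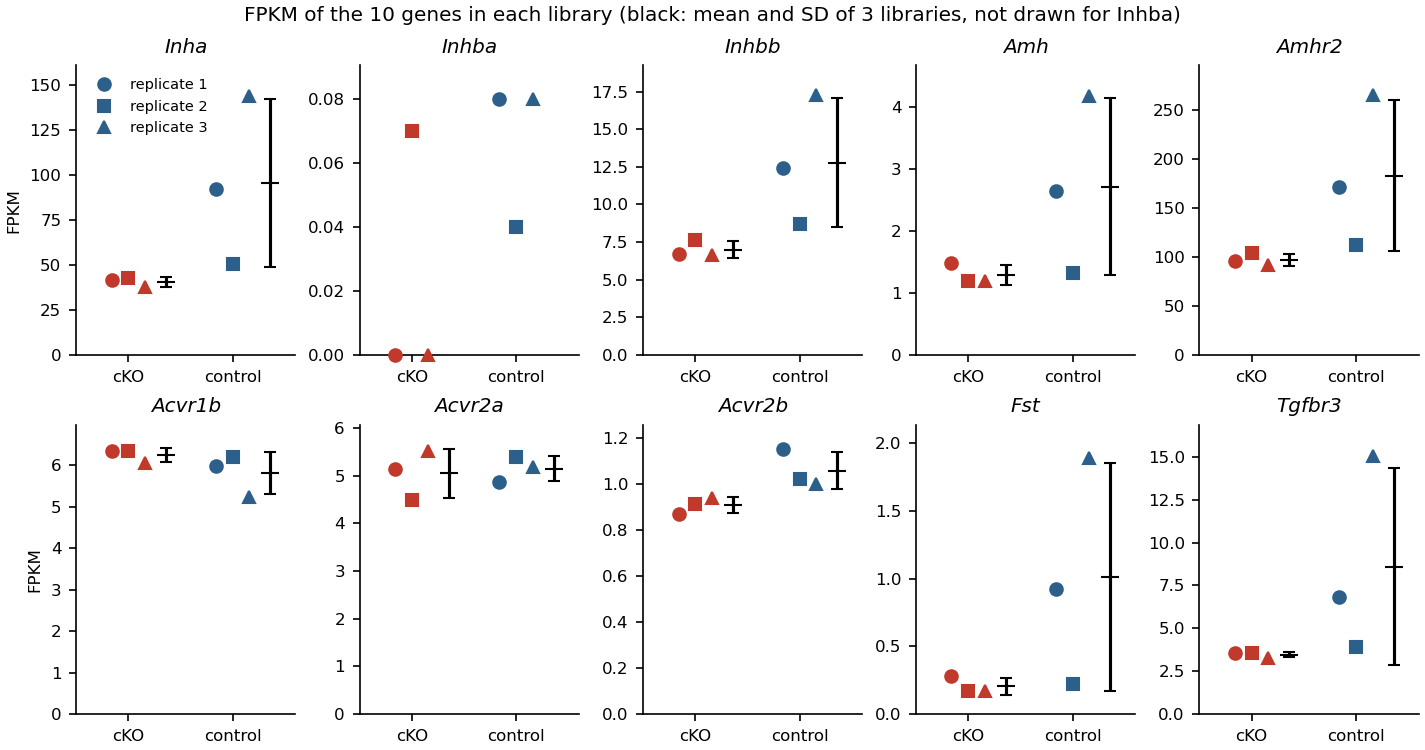
FPKM of the 10 genes by library, each panel with its own axis starting at 0; symbols mark replicates and black bars the mean and SD of 3 libraries (not drawn for Inhba). For Inha, Inhbb, Amh, Amhr2, Fst and Tgfbr3 the libraries labelled control replicates 1 and 3 stand above all 3 labelled cKO, while Acvr1b, Acvr2a and Acvr2b lie within a narrow band.

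The subunits of inhibin B were lower in every library labelled cKO than in any labelled control. Inha (Entrez 16322, mm10 chromosome 1, 75507077 to 75510366), which encodes the alpha subunit found in inhibins and absent from activins, had 41.6, 42.7 and 37.5 FPKM in the libraries labelled cKO, against 92.3, 50.8 and 144 in those labelled control. The libraries labelled cKO lie close together and control replicate 2 lies nearest to them. The means were 40.6 ± 2.73 FPKM under cKO and 95.6 ± 46.6 under control (SD, n = 3 each), and in edgeR's quasi-likelihood test the log2 fold change was -1.13 (SE 0.31), a 2.18-fold lower level with an adjusted p of 0.166. DESeq2 called the gene lower (adjusted p = 0.0164), as did edgeR without control replicate 2 (log2 -1.40, adjusted p = 0.00848), and without control replicate 3 the log2 fold change was -0.72 (adjusted p = 0.171). The adjusted p ran from 0.00848 to 0.377 over all alternatives. The 0.166 was the lowest edgeR adjusted p of any gene with all libraries. Genes of different unadjusted edgeR p share it, L3mbtl2 at 0.00018 and Tgfbr3 at 0.020 among them, so it does not rank them. The 0.377, from the fit without cKO replicate 1, is shared in the same way.

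Inhbb (Entrez 16324, chromosome 1, 119415463 to 119422248), the beta-B subunit of inhibin B and of activin B, had 6.73, 7.62 and 6.65 FPKM under cKO, against 12.4, 8.68 and 17.3 under control. The order of the libraries labelled control was that of Inha, with replicate 3 highest and replicate 2 lowest, and the groups do not overlap. Mean levels were 7.0 ± 0.538 FPKM under cKO and 12.8 ± 4.31 under control (SD, n = 3 each; log2 -0.76, SE 0.22, 1.70-fold lower, edgeR adjusted p = 0.166). DESeq2 called Inhbb lower (adjusted p = 0.0311), and edgeR did so without control replicate 2 (log2 -0.94, adjusted p = 0.00871), while without control replicate 3 the log2 fold change was -0.50; the adjusted p ran from 0.00871 to 0.377.

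Inhba (Entrez 16323, chromosome 13, 16004256 to 16031609), the beta-A subunit of inhibin A and activin A, was hardly read. Expected counts were 0, 2 and 0 under cKO and 2, 1 and 2 under control, all under the floor of 3 counts in a library below which no fold is given, and the gene did not pass the filter on low counts. It was not listed in cKO replicates 1 and 3, set here to 0; FPKM was 0.0700 in cKO replicate 2 and 0.0800, 0.0400 and 0.0800 under control. The subunit RNA was nearly all Inha and Inhbb at this depth.

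With Inhba near 0, the ratio of alpha to beta subunit RNA is in effect that of Inha to Inhbb. The FPKM of Inha divided by the sum of Inhba and Inhbb was 6.18, 5.55 and 5.64 in the libraries labelled cKO, against 7.40, 5.82 and 8.28 in those labelled control. The groups overlap, since cKO replicate 1 lies above control replicate 2. The means were 5.79 ± 0.341 under cKO and 7.17 ± 1.24 under control (SD, n = 3 each), a difference of -1.38 that gave p = 0.2 in a two-sided exact permutation test, where 3 libraries against 3 cannot go below 0.1. The ratio of Inhbb to Inhba could be formed in 4 of 6 libraries, 1 of them labelled cKO, and was not compared.

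The AMH pair stood at very different levels, and both genes ordered the libraries labelled control alike, with replicate 3 highest and replicate 2 lowest. Amh (Entrez 11705, chromosome 10, 80805240 to 80807679) had 1.48, 1.19 and 1.20 FPKM under cKO, against 2.65, 1.33 and 4.18 under control, from 45, 36 and 36 expected counts and 77, 39 and 120. The groups overlap, since cKO replicate 1 stands above control replicate 2. The log2 fold change was -0.97 (SE 0.40, 1.96-fold lower, edgeR adjusted p = 0.175). Amh was not called by DESeq2 (adjusted p = 0.142); edgeR called it lower without control replicate 2 (log2 -1.26, adjusted p = 0.0192) and gave -0.53 without control replicate 3. Over the alternatives the adjusted p ran from 0.0192 to 0.381.

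Amhr2 (Entrez 110542, chromosome 15, 102445002 to 102454640), the type II receptor that binds AMH and is made by Sertoli and Leydig cells, had 96.4, 104 and 91.6 FPKM under cKO, against 172, 113 and 266 under control. All 3 libraries labelled cKO lie below all 3 labelled control, the nearest pair being cKO replicate 2 and control replicate 2. Mean levels were 97.3 ± 6.22 FPKM under cKO and 183 ± 77.0 under control (SD, n = 3 each; log2 -0.81, SE 0.26, 1.75-fold lower, edgeR adjusted p = 0.166). DESeq2 called it lower (adjusted p = 0.0355), as did edgeR without control replicate 2 (log2 -1.02, adjusted p = 0.00888), against -0.46 without control replicate 3; the adjusted p ran from 0.00888 to 0.377. The receptor RNA was far more abundant per length than that of its ligand in both groups.

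The activin receptor genes among the members, Acvr1b, Acvr2a and Acvr2b, differed little between the groups. Acvr1 and Acvr1c, in the receptor list of the wider pathway further on, both had a negative log2 fold change. Acvr1b (Entrez 11479, chromosome 15, 101174072 to 101213684), the type I receptor ALK4, had 6.35, 6.34 and 6.07 FPKM under cKO, against 5.99, 6.21 and 5.25 under control. Its log2 fold change was 0.20 (SE 0.12, edgeR adjusted p = 0.291), the opposite sign to the subunit genes, and cKO replicate 3 lies below control replicate 2. Acvr2a (Entrez 11480, chromosome 2, 48814109 to 48903264), a type II receptor that binds activins, had 5.14, 4.48 and 5.51 FPKM under cKO, against 4.86, 5.38 and 5.18 under control, with the groups interleaved. Its log2 fold change of 0.071 (SE 0.13, edgeR adjusted p = 0.717) takes the other sign when scaled by library totals (-0.027), by which the median of all genes moves to -0.10, or on FPKM.

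Acvr2b (Entrez 11481, chromosome 9, 119401583 to 119442148), the other type II receptor, had 0.870, 0.910 and 0.940 FPKM under cKO, against 1.15, 1.02 and 1.0 under control. The groups do not overlap in FPKM, but by a small margin, and the log2 fold change was -0.12 (SE 0.15, edgeR adjusted p = 0.587). None of the 3 activin receptor genes was called in edgeR, in DESeq2 or under any other alternative run. A p that misses the threshold does not show that the levels were equal. Acvr1b and Acvr2b are each listed with more than 1 transcript, and the length by which Acvr1b is scaled was 4089 ± 55.5 bases under cKO and 4101 ± 100.4 under control (SD, n = 3 each).

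Betaglycan and follistatin showed the widest differences between libraries. Tgfbr3 (Entrez 21814, chromosome 5, 107106567 to 107289629) had 3.55, 3.56 and 3.30 FPKM in the libraries labelled cKO, against 6.84, 3.93 and 15.0 in those labelled control. Control replicate 3 stands far above the rest, and the groups do not overlap. Means were 3.47 ± 0.147 FPKM under cKO and 8.60 ± 5.75 under control (SD, n = 3 each; log2 -1.22, SE 0.42, 2.33-fold lower, edgeR adjusted p = 0.166). DESeq2 called Tgfbr3 lower (adjusted p = 0.0311), as did edgeR without control replicate 2 (log2 -1.53, adjusted p = 0.0107), and the log2 fold change was -0.56 without control replicate 3; the adjusted p ran from 0.0107 to 0.377.

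Fst (Entrez 14313, chromosome 13, 114452262 to 114458989) was low throughout, with 14, 9 and 8 expected counts under cKO, against 44, 10 and 86 under control. It passed the filter through the libraries labelled control, so that its difference was partly fixed by the filter. In FPKM it stood at 0.280, 0.170 and 0.170 under cKO, against 0.920, 0.220 and 1.89 under control, and cKO replicate 1 lies above control replicate 2. The log2 fold change was -2.12 (SE 0.71, edgeR adjusted p = 0.166), with DESeq2 not calling it (adjusted p = 0.0556). Without control replicate 2, the library with 10 counts, edgeR gave a log2 fold change of -2.56 (adjusted p = 0.00938), which that choice and the filter favour, and without control replicate 3 it gave -1.33; the adjusted p ran from 0.00938 to 0.377.

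**Figure D2:**
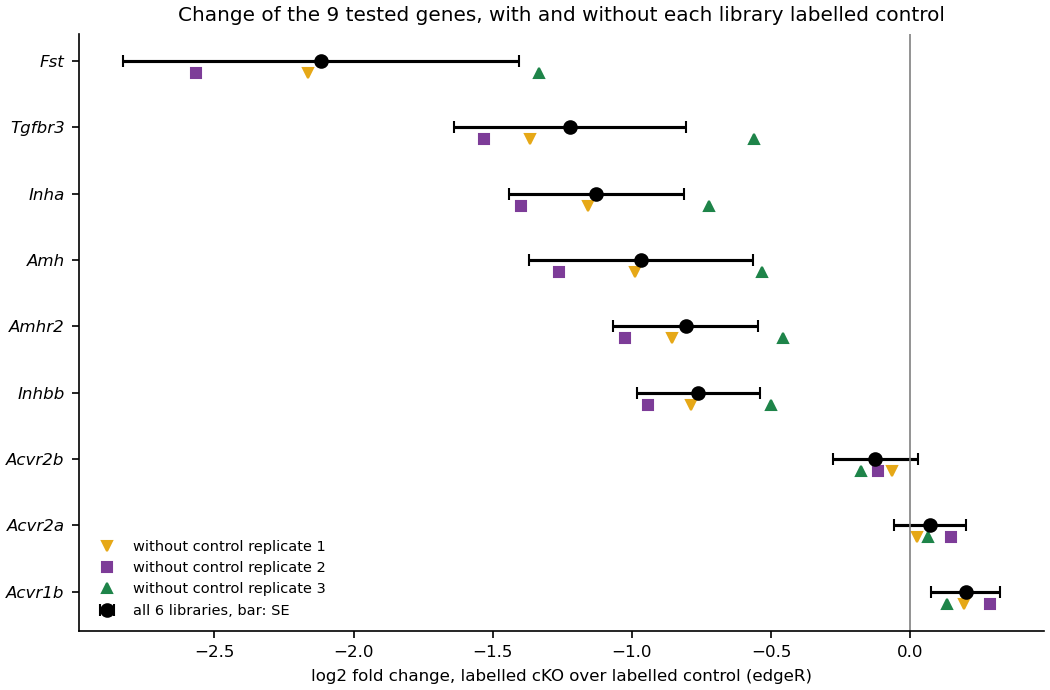
Log2 fold change (labelled cKO over labelled control, x axis) of the 9 tested genes in edgeR with all 6 libraries (black, bar: SE) and with each library labelled control left out (coloured). Fst, Tgfbr3, Inha, Amh, Amhr2 and Inhbb lie at -2.12 to -0.76, nearer 0 without control replicate 3 and farther from it without control replicate 2; Acvr2b, Acvr2a and Acvr1b lie at -0.12 to 0.20.

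Counts over the members include Fst, which the filter on low counts kept through the libraries labelled control, and are given as a description. As a group, 7 of the 9 members that passed the filter had a negative log2 fold change and their median was -0.81, beside 50.5% of all 18269 genes tested and a median of -0.0048 over them; 2 were positive, as were 49.5% of all genes. edgeR called 0 members and 0% of genes in either direction after adjustment (threshold 0.05). With p under 0.05 before adjustment, 6 members were lower and 0 higher, where 18.8% of all genes were lower and 8.85% higher. In FPKM, 5 of the 9 were lower and 0 higher with no overlap between groups, against 26.1% and 9.6% of all genes. DESeq2 called 4 members lower (Inha, Inhbb, Amhr2 and Tgfbr3) and 0 higher, against 8.04% and 0.445% of the 16843 genes with a DESeq2 adjusted p. In limma on log2(FPKM + 1) or log2(FPKM + 0.1), 0 members were called, against 0% of genes lower and 0.0065% higher. With control replicate 2 left out, edgeR called 6 members lower (those 4 with Amh and Fst, the last of which passed the filter through the libraries labelled control), when it called 20.7% of all genes lower and 11% higher. It called 0 members when any other library was left out, against 0% of genes lower and 0.0161% higher without cKO replicate 2, 0.00536% higher without cKO replicate 3 and 0.0108% higher without control replicate 3.

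The libraries of each group differed in spread as well as in level. The coefficient of variation of FPKM was 6.73% for Inha, 7.69% for Inhbb and 6.39% for Amhr2 among the libraries labelled cKO, against 48.7%, 33.7% and 42.0% among those labelled control. It was larger under control for 8 of the 9 genes, Acvr2a being the exception (10.3% under cKO and 5.10% under control). Over all genes tested the median was 8.45% under cKO and 18.9% under control, and it was larger under control for 79.1% of them.

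Markers of Sertoli cells, which make inhibin B and AMH, and of Leydig cells were highest in the same libraries as Inha, Inhbb, Amh and Amhr2. All 16 Sertoli markers, none of them a member, had a negative log2 fold change (median -1.001), and their summed level ran from 886 to 920 FPKM under cKO, against 1174 to 2979 under control. Clu, which encodes the secreted chaperone clusterin, stood at 397.45, 410.02 and 391.96 FPKM under cKO and 808, 513 and 1468 under control, and Cst9, a cystatin, at 151, 143 and 134 under cKO and 192, 184 and 335 under control. All 8 Leydig markers were negative too (median -1.69), with sums of 1456 to 1609 FPKM under cKO and 2054 to 10094 under control. No marker of either list was at 0 in any library. The 7 spermatid markers were all positive (median 0.37), with sums of 22912 to 25217 FPKM under cKO and 15838 to 22280 under control; the protamine gene Prm1 had 8272, 7492 and 7688 FPKM under cKO and 6806, 7327 and 5074 under control. All 7 macrophage markers (median -1.48; sums of 26.0 to 30.8 FPKM under cKO, 31.5 to 136 under control) and all 6 peritubular myoid markers (median -0.66) were negative, and all 7 spermatocyte markers positive (median 0.28). Of 7 spermatogonial markers 5 were negative (median -0.42; sums of 53.9 to 58.7 FPKM under cKO, 68.7 to 106.6 under control), as were 5 of 6 endothelial markers (median -0.61) and 3 of 4 tested lymphocyte and blood markers (median -0.21). Beside these counts, 50.5% of all genes tested were negative and 49.5% positive. The marker lists were chosen with earlier results of these data known, and their counts are a description. In bulk tissue, fewer cells of a type and less RNA per cell cannot be told apart, and the part of cell composition in the members' differences was not tested.

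Set against the Sertoli markers, the subunit and AMH genes varied less than in log2 CPM and the activin receptors varied more. How many of all genes follow these markers as closely was not counted, so the closeness is a description and not a trait shown to be particular to these members. The log2 CPM of Inha ranged over 1.82 between libraries, but its level minus the mean log2 CPM of the 16 markers ranged over 0.35. This relative level was 0.89, 0.99 and 0.81 under cKO, against 1.16, 0.82 and 1.02 under control (difference -0.10, two-sided exact permutation p = 0.4). The relative level of Inhbb ranged over 0.55, against 1.25 for its log2 CPM, that of Amh over 0.50, against 1.64, and that of Amhr2 over 0.37, against 1.41. The relative level of Amhr2 was 2.53, 2.70 and 2.53 under cKO, against 2.49, 2.40 and 2.33 under control, all higher under cKO by a difference of 0.18 (exact permutation p = 0.1, the smallest that 3 against 3 allows); on log2(FPKM + 1) the difference was 0.10 and the groups gave p = 0.3 in the same exact test.

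The activin receptors, steady in log2 CPM, stood higher relative to the Sertoli markers in every library labelled cKO. Acvr1b stood at -0.32, -0.23 and -0.27 relative to the Sertoli markers under cKO, against -1.28, -0.69 and -2.19 under control. Acvr2a stood at -0.12, -0.26 and 0.047 under cKO, against -1.07, -0.42 and -1.78 under control. The differences, 1.11 for Acvr1b, 0.98 for Acvr2a and 0.79 for Acvr2b, left no overlap between groups; with log2 CPM nearly steady, they largely restate the marker mean's own difference of -0.91. Tgfbr3 differed by -0.10 (p = 0.7, exact permutation test) and Fst by -0.65 (p = 0.4, exact permutation test). The log2 CPM of Fst, which rests on 8 to 14 counts in 4 of 6 libraries, ranged over 3.09. The 6 members of the subunit and AMH side shared the order of the markers in the libraries labelled control, with replicate 3 highest, then 1, then 2.

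**Figure D3:**
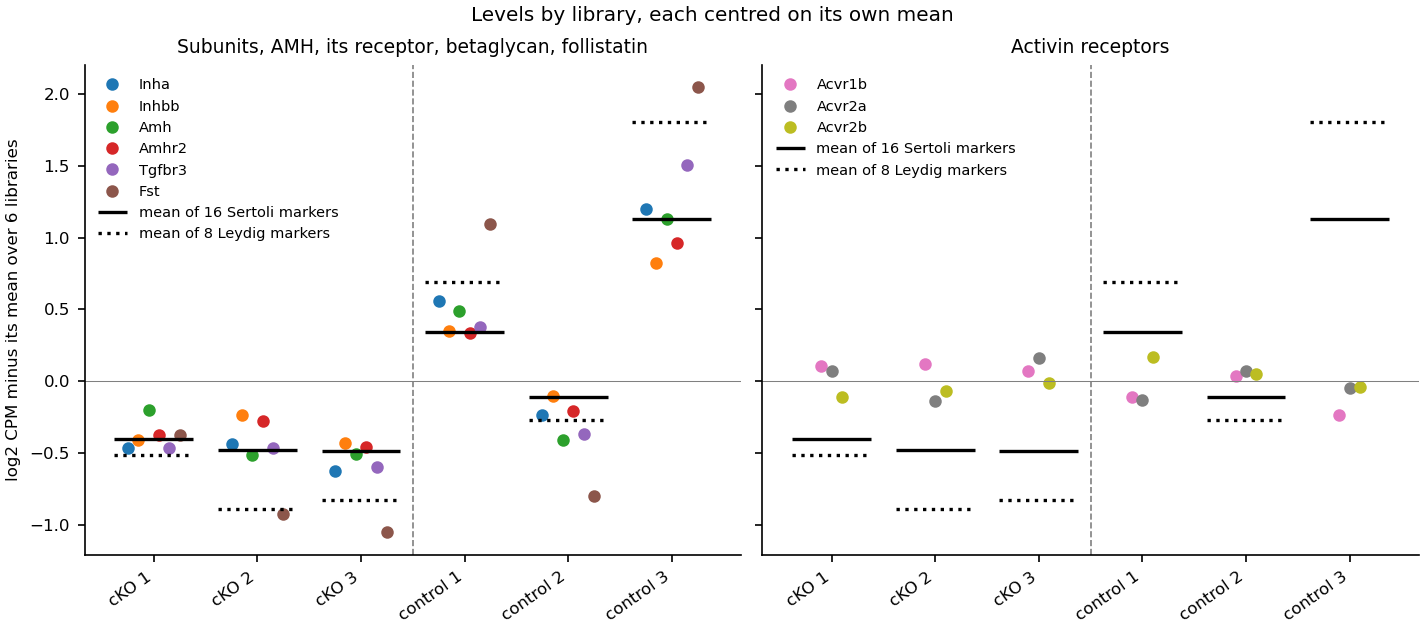
Log2 CPM of each gene minus its own mean over 6 libraries (y axis) by library (x axis), with the mean of 16 Sertoli markers (solid bars) and of 8 Leydig markers (dotted bars). On the left, Inha, Inhbb, Amh and Amhr2 stay close to the Sertoli bars and Fst spreads wider; on the right, the activin receptors stay near 0 in all libraries.

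The genes whose library pattern was most like that of a member were sought among 12447 genes with a mean of at least 1 FPKM, by the largest deviation of centred log2 CPM over the 6 libraries. Closest to Inha were Srebf1, a regulator of lipid synthesis (largest deviation 0.025), Prkd1, a protein kinase (0.053), and Cited2, a transcriptional co-regulator (0.069). Srebf1 had 3.69, 3.80 and 3.29 FPKM under cKO, against 8.08, 4.41 and 12.4 under control. Closest to Inhbb were Patz1, Arhgef18 and Parvb (0.052, 0.055 and 0.056), and closest to Amh were Efemp2, Sulf2 and Fkbp9 (0.079, 0.091 and 0.11). With 6 libraries and so many candidates, such likeness is a description.

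Of 68 further genes of the wider pathway and its regulators, 55 passed the filter; 45 had a negative and 10 a positive log2 fold change, where 50.5% and 49.5% of all genes did. edgeR called 0 of them, and DESeq2 called 15 lower and 0 higher. Of the 16843 genes with a DESeq2 adjusted p, 8.04% were called lower and 0.445% higher. Gdf11, Lefty1, Lefty2, Tgfb2, Bmp8b, Gdf10 and Acvr1c passed the filter but had no DESeq2 adjusted p. The lists were chosen with earlier results of these data known, and their counts are a description. Among 14 of 21 ligands that passed, 11 were negative (median -0.68), and DESeq2 called Tgfb3, which encodes a TGF-beta ligand, at 2.51, 2.84 and 2.32 FPKM under cKO and 4.19, 3.47 and 8.12 under control. Inhbc and Inhbe, the remaining beta subunit genes, had at most 1 and 2 counts in any library. All 8 of 10 receptors that passed were negative (median -0.82). DESeq2 called the type II receptor Bmpr2, at 1.55, 1.52 and 1.73 FPKM under cKO and 2.96, 2.13 and 4.81 under control, and the type I receptor Acvr1, at 1.58 ± 0.255 under cKO and 3.95 ± 2.38 under control (SD, n = 3 each). The groups overlap for Acvr1, with 1.83 FPKM in cKO replicate 1 and 1.82 in control replicate 2.

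Inhibitors and transducers were more mixed. Of 10 of 14 inhibitors that passed, 6 were negative (median -0.42) and DESeq2 called 0. The most abundant, the ubiquitin ligase genes Smurf1 and Smurf2, which mark receptors and SMADs for destruction, stood at 18.6 ± 0.878 and 18.3 ± 1.31 FPKM under cKO and 18.1 ± 1.82 and 17.6 ± 0.932 under control. Of 9 transducers, 6 were negative (median -0.22), and DESeq2 called Smad3, a carrier of activin signals to the nucleus, at 1.29, 1.59 and 1.48 FPKM under cKO and 2.95, 2.37 and 5.53 under control (log2 -1.21, SE 0.30, DESeq2 adjusted p = 0.0162). All 4 protease genes were negative (median -0.99). Among them DESeq2 called Furin, which cleaves the precursors of this family, at 4.48, 5.03 and 4.12 FPKM under cKO and 12.8, 5.58 and 20.6 under control, and its relative Pcsk5, at 0.307 ± 0.0611 under cKO and 0.970 ± 0.507 under control.

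All 10 regulators of the Sertoli cell and of Inha and Amh transcription were negative (median -1.01), with no overlap between groups in FPKM for any of them, against the 26.1% of all genes given above. The list was chosen with earlier results of these data known, so its shares are a description. DESeq2 called 9 of 10 lower, against the same 8.04% of genes. They include Nr5a1, whose product steroidogenic factor 1 activates Amh and Inha, and Sox9, which switches on Amh in the fetal testis. Another is Dmrt1, a transcription factor gene that is also in the list of spermatogonial markers. Nr5a1 had 11.1, 9.74 and 10.2 FPKM under cKO, against 25.2, 13.2 and 51.9 under control (log2 -1.43, SE 0.42, DESeq2 adjusted p = 0.0154), and Sox9 had 3.49, 3.78 and 3.39 under cKO, against 7.13, 4.79 and 11.4 under control (log2 -1.02, SE 0.28, DESeq2 adjusted p = 0.0197). Dmrt1 had 7.23, 7.96 and 7.46 FPKM under cKO, against 11.8, 10.8 and 15.0 under control. Gata1 and Gata4 stood at 4.13 ± 0.491 and 7.19 ± 0.136 FPKM under cKO and 9.54 ± 4.63 and 15.5 ± 8.04 under control. Of these regulators Sox9, Fshr, Wt1 and Gata1 are also in the Sertoli list, and with control replicate 3 left out the medians were -0.61 for the regulators, -0.34 for the ligands and -0.44 for the receptors.

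**Figure D4:**
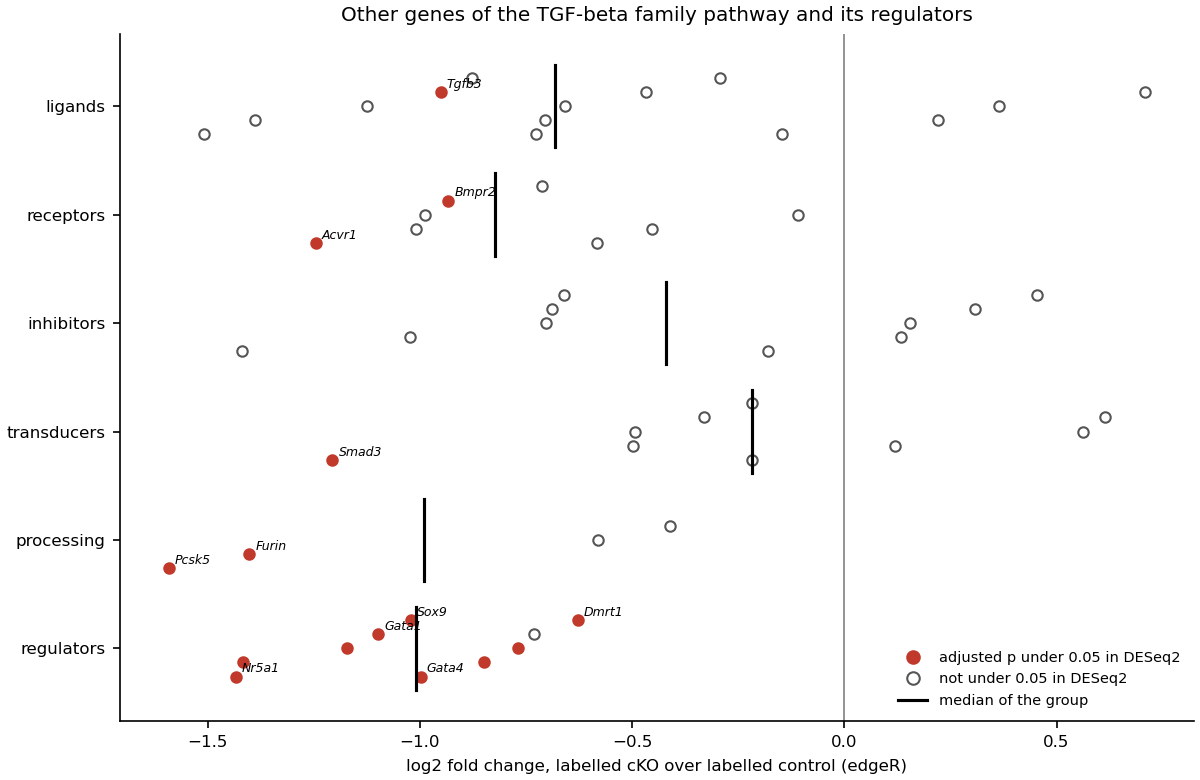
Log2 fold change (labelled cKO over labelled control, edgeR, x axis) of the 55 further genes by role (rows); each circle is a gene, filled where DESeq2 gave an adjusted p under 0.05, and black lines mark medians. The 15 filled genes are all left of 0, and 9 of them are regulators. Open circles include genes without a DESeq2 adjusted p.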

How the data were processed

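The deposited tables, 1 per library, give per the file headers an expected count, an FPKM and a length per gene. The submitters' processing notes name HISAT2 2.0.4, Bowtie2 2.2.5, RSEM, DESeq2 and mm10 with no role or order; the sources used here do not give strandedness. The authors' expected counts are not normalized, their FPKM is scaled for length and depth, and no listed FPKM is under 0.01, and genes absent from a table were given 0. File names carry the opposite genotype from the sample titles; groups follow the titles. Expected counts were rounded and tested in edgeR 4.0.16 (R 4.3.3; filterByExpr, minimum count 10, minimum total 15; TMM; quasi-likelihood F-test; Benjamini-Hochberg over 18269 genes, threshold 0.05); the SE is the log2 fold change over the root of F. The common biological coefficient of variation was 22.8%. Log2 CPM used a prior count of 2.

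Alternatives were DESeq2 1.42.0 at its defaults on the same genes, other scalings and filters, limma 3.58.1 on log2(FPKM + 1) and log2(FPKM + 0.1), each library left out, and the replicate number as a block. Single values were compared by exact permutation tests (scipy 1.17.1). Fits were also run on simulated counts with equal spread in both groups, narrower than in these data. That run therefore does not test the calls made here. Named genes were all members, L3mbtl2, list genes called by edgeR or else DESeq2 (up to 4 a list, otherwise the 2 most abundant), at most 2 markers of a cell type list, and the 3 genes most like Inha, Inhbb and Amh; Gata1, Gata4, Inhbc and Inhbe were named after their values were seen. The members and lists were chosen with earlier results of these data known. 1 gene that the rule names is not reported here.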

Additional observations from a re-analysis of the deposited data

How the results depend on the processing

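edgeR called 0 genes lower and 0 higher with all 6 libraries, with DESeq2 size factors, library totals, no filter or the strict filter; DESeq2 called 1354 lower and 75 higher, and limma called 0 lower and 1 higher with either pseudocount. Leaving out each library in turn gave 0 to 3851 lower and 0 to 2049 higher, the highest values without control replicate 2. Members called lower numbered 4 in DESeq2 and 0 to 6 with a library left out, and further pathway and regulator genes called numbered 15 in DESeq2 and 0 to 30; the cause was not tested. With the replicate number as a block edgeR again called 0 genes and 0 members (Inha log2 -1.02, Amh -0.85, Acvr1b 0.20). Deviations of same-numbered libraries correlated at 0.043, -0.0067 and -0.039, and not every library correlated best with its own number. With 3 libraries per group, such values cannot show whether or not the numbers pair the libraries.

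Inha, Inhbb, Amh, Amhr2, Fst, Tgfbr3, Acvr2b and Acvr1b kept the sign of their log2 fold change under every alternative that tested them. Acvr2a did not: -0.027 by library totals and -0.026 and -0.031 in limma, against 0.071; its FPKM difference of -0.097 ran from -0.33 to 0.19 with a library left out. Relative to the Sertoli markers, with a library left out the difference of Amh (0.098) ran from -0.026 to 0.20 and that of Tgfbr3 (-0.10) from -0.26 to 0.062. On log2(FPKM + 1) the difference of Amh was 0.30 and that of Fst (-0.65) turned to 0.28. Each gave an exact permutation p of 0.1, the smallest that 3 against 3 allows. The added 1 exceeds every Fst value under cKO (0.170 to 0.280 FPKM), so Fst is flattened on that scale. Amh and Fst, at 8 to 120 counts a library, are limited by depth.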
